A study of Homo sapiens with 4 samples.

Results

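Mitochondrial ribosomal protein genes were followed after treatment with JG342, a compound named by the study as an inhibitor of the chaperone HSP70 that acts at an allosteric site. The cells were MM.1S, a long-established line grown from a human multiple myeloma. The members were the genes whose symbol is MRPL or MRPS followed by a number and at most 1 letter, which gave 78 of the 16057 genes in the deposited table, 49 MRPL and 29 MRPS. Treated cells received 350 nM JG342 and control cells the solvent DMSO, both were harvested at 26 h, and each treatment had 2 libraries, described as biological duplicates and numbered 1 and 2. All 4 libraries came from the same cell line with no genetic change named, so the comparison describes that line. The values are TPM, a level per transcript length scaled to a fixed library total, which can be set side by side between genes. Read depth is not recorded in TPM, so no counting intervals could be given.

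The mitochondrial ribosome translates the few messages made from mitochondrial DNA, which encode core subunits of the respiratory chain. Its RNA comes from the mitochondrial genome, but all of its proteins are encoded in the nucleus, made in the cytosol and imported, with mitochondrial HSP70 driving import into the matrix. The large subunit (MRPL proteins) joins amino acids and holds the exit tunnel, and the small subunit (MRPS proteins) binds and decodes the message. Some members descend from bacterial ribosomal proteins and others occur only in mitochondria. Symbol and place do not always match: MRPS30 and MRPS18A sit in the large subunit, and MRPS36 is now known as a component of the alpha-ketoglutarate dehydrogenase complex.

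The labelled cell type was checked on markers. All 10 plasma cell markers in the table were present, the lowest, CD38, at 22.0 to 29.2 TPM, and the highest, JCHAIN, at 5431 to 10383 TPM. Of 8 markers of other cells, LYZ stood at 37.0 to 46.2 TPM, and the other 7 did not exceed 7.7 TPM in any library. TPM totals were 994463 to 994718.

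Promoter windows were read for the members that the results turn on, because 2 of these windows also hold the start of another gene that moved and because the windows show which known motifs the members carry. The windows come from RefSeq (GRCh38.p14), run from 250 bases before to 50 bases after a gene start on the strand named, and were picked after the values were seen. The first is MRPL18, chr6:159789562-159789861, plus strand, which holds the closest pair of starts of MRPL18 and of TCP1 on the other strand. No match to the motifs searched was found in it. Another MRPL18 window, chr6:159790217-159790516, is not shown and holds a match to the ETS motif CCGGAAG, 26 bases before its start. Capitals in the window shown mark the bases between the starts of MRPL18 and TCP1.
MRPL18: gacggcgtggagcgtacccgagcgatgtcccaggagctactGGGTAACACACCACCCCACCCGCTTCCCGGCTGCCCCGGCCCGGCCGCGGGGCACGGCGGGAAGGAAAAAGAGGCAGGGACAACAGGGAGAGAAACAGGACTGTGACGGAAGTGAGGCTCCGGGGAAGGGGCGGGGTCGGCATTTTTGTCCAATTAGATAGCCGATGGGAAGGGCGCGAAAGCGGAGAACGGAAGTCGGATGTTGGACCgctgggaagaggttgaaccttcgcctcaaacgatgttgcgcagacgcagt
The next is MRPL32, chr7:42932126-42932425, plus strand, which shares 299 of its bases with the window of PSMA2 on the minus strand. Capitals mark matches to the YY1 motif, AANATGGC or its reverse complement.
MRPL32: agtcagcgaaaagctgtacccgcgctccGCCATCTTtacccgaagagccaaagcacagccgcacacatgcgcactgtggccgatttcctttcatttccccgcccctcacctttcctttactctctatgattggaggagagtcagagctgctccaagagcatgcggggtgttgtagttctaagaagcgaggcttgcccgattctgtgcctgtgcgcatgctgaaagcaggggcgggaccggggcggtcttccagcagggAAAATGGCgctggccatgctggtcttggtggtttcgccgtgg
MRPL51, the most abundant member, lies on the minus strand at chr12:6493213-6493512. Capitals mark, in order, a heat shock element, 2 matches to the ETS motif CCGGAAG and a YY1 match.
MRPL51: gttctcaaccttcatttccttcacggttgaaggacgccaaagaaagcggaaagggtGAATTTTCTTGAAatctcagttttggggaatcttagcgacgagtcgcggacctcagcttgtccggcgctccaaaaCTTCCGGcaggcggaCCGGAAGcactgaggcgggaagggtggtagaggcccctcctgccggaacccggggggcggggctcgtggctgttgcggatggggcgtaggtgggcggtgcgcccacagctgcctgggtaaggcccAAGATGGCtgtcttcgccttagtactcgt
MRPL27, the member with the largest fall, lies on the minus strand at chr17:50373135-50373434, and MRPL43, the member with the highest fold change among those with a window, on the minus strand at chr10:100987448-100987747. Capitals mark ETS matches in both.
MRPL27: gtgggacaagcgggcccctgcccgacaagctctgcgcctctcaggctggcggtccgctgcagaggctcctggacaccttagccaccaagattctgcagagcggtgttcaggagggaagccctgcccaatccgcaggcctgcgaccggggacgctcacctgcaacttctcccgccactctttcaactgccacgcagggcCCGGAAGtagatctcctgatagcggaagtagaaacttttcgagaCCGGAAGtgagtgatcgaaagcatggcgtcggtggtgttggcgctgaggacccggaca
MRPL43: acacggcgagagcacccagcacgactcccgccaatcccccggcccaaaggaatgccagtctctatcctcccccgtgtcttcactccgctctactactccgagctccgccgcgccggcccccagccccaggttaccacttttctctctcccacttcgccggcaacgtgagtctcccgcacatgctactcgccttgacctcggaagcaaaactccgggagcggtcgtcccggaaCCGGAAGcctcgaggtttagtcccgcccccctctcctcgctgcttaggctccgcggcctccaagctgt

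Mitochondrial ribosomal protein genes were mostly lower after JG342, by small amounts. Among the 78 members, 16 fell and none rose at a limma adjusted p under 0.05, and at an unadjusted p under 0.05 the counts were 22 lower and 1 higher. The 16 are 20.5% of the members, where 7.62% of all 12042 genes tested fell, 10.8% rose and 18.4% changed in either direction. The 16 fell to between 67.6% and 79.9% of their DMSO level. All 78 members passed the filter on low values (a mean of at least 1 TPM), so none was left out of the test. The fold change was below 0 for 64 members (82.1%, against 46.5% of all genes tested), and the median log2 fold change was −0.16 against 0.03. Both JG342 libraries lay below both DMSO libraries for 46 members (59.0%, where this held for 28.2% of all genes tested), and above them for 6. The other 26 members had overlapping groups.

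How many members passed changed with the fit. Without the trend of variance on expression, or without the filter on low values, only MRPL18 among the 78 passed (limma adjusted p 0.0417 and 0.0406). That is 1.28% of the members, below the 4.37% and 1.84% of all genes that fell in these fits. Leaving out DMSO replicate 1 left 0 members past the threshold in limma, where 3.30% of all genes fell, with 19 members lower at an unadjusted p under 0.05. Leaving out DMSO replicate 2 or JG342 replicate 1 left MRPL18, where 1.59% and 5.70% of all genes fell. Without JG342 replicate 2, 7 members fell (8.97%, against 5.96% of all genes), of which 5 were among the 16 and MRPL12 and MRPS23 were not. The excess of called members over all genes thus did not hold in 5 of these 6 fits. All 16 stayed below 0 in each of them.

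**Figure D1:**
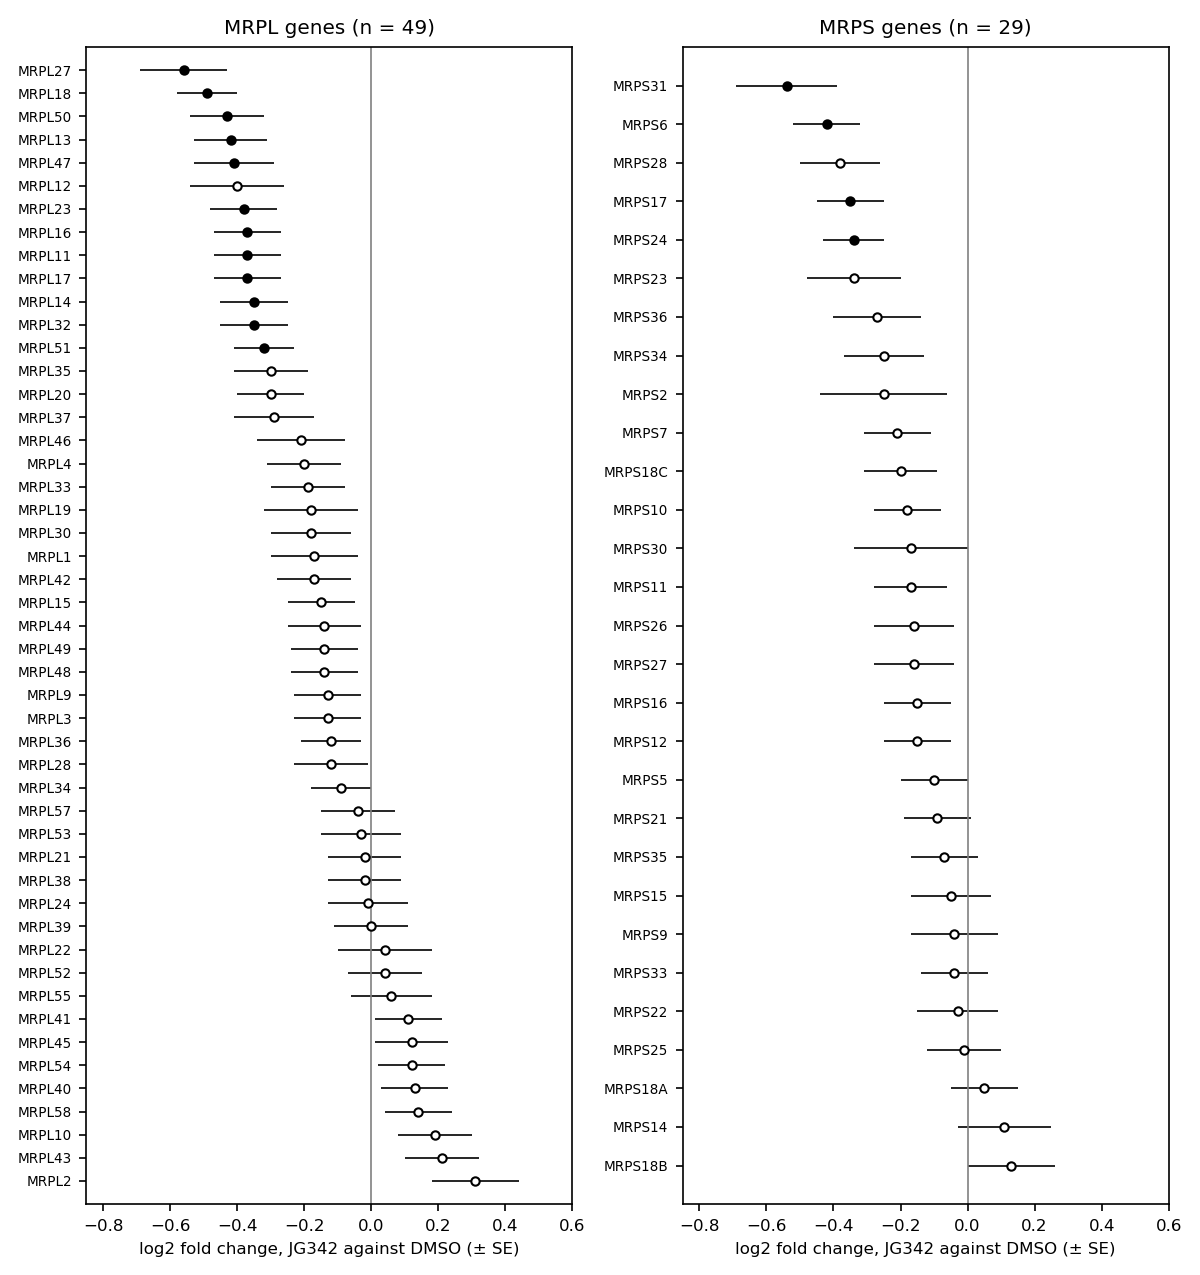
Log2 fold change of each of the 49 MRPL and 29 MRPS genes, JG342 against DMSO, with the limma standard error as the bar. Filled points passed an adjusted p under 0.05, 12 MRPL and 4 MRPS, all to the left of 0, and the range runs from −0.56 (MRPL27) to 0.31 (MRPL2).

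Genes of both subunits were among those that fell. Of the MRPL genes 12 of 49 fell (24.5%), and of the MRPS genes 4 of 29 fell (13.8%). Among all genes tested 7.62% fell. The median log2 fold change was −0.14 for MRPL and −0.16 for MRPS. In the libraries numbered 1 the medians were −0.12 and −0.15, and in those numbered 2 they were −0.19 and −0.15. The summed TPM of the MRPL genes was 2.01 and 1.98 times that of the MRPS genes in the DMSO libraries, and 2.03 and 1.98 times in the JG342 libraries. The ratios of the treatments overlapped, and no difference in fold change between MRPL and MRPS was tested. With MRPS30 and MRPS18A counted in the large subunit and MRPS36 left out, 12 of 51 and 4 of 26 genes fell, with medians of −0.14 and −0.16.

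Summed, the 78 genes made up 0.799% (replicate 1) and 0.843% (replicate 2) of all TPM in DMSO. In JG342 the sums were 0.704% (replicate 1) and 0.760% (replicate 2). The groups did not overlap, and in both treatments the library numbered 2 was the higher. TPM are shares of the RNA in a library, so a smaller share of these messages and a larger amount of other RNA per cell cannot be told apart. The cytosolic ribosomal protein genes held 15.9% in each DMSO library and 17.3% and 18.8% in the JG342 libraries. The part of this shift in the members' fall was not tested.

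The members were not expressed at 1 level, although the assembled ribosome holds most of its proteins in equal numbers. Mean levels ran over a 22.0-fold range, with a median of 77.7 TPM. The highest member was MRPL51, a protein with no bacterial counterpart, at 367.75 and 365.24 TPM in DMSO and 286.22 and 299.80 TPM in JG342. MRPS24, which lies in the head of the small subunit, was the next highest. Its levels were 295.70 and 301.42 TPM in DMSO and 232.84 and 237.63 TPM in JG342. MRPS34 was the third by mean level, and its JG342 libraries (199.03 and 240.32 TPM) overlapped its DMSO libraries (238.94 and 283.16 TPM). The 3 lowest members were MRPL19, MRPS31 and MRPS36. MRPL19 stood at 14.56 and 17.45 TPM in DMSO and 14.18 and 13.80 TPM in JG342. MRPS36 stood at 27.94 and 24.97 TPM in DMSO and 20.58 and 22.93 TPM in JG342, and its fold change of −0.27 ± 0.13 SE did not pass (limma adjusted p 0.169). The order of the members was nearly the same in both treatments: across the 78 genes the log2 mean levels correlated with a Pearson r of 0.98, a description over genes of the same libraries. MRPL27 dropped by 16 places, from 38 to 54, which was the largest move, and MRPL43 rose by 11, from 40 to 29.

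**Figure D2:**
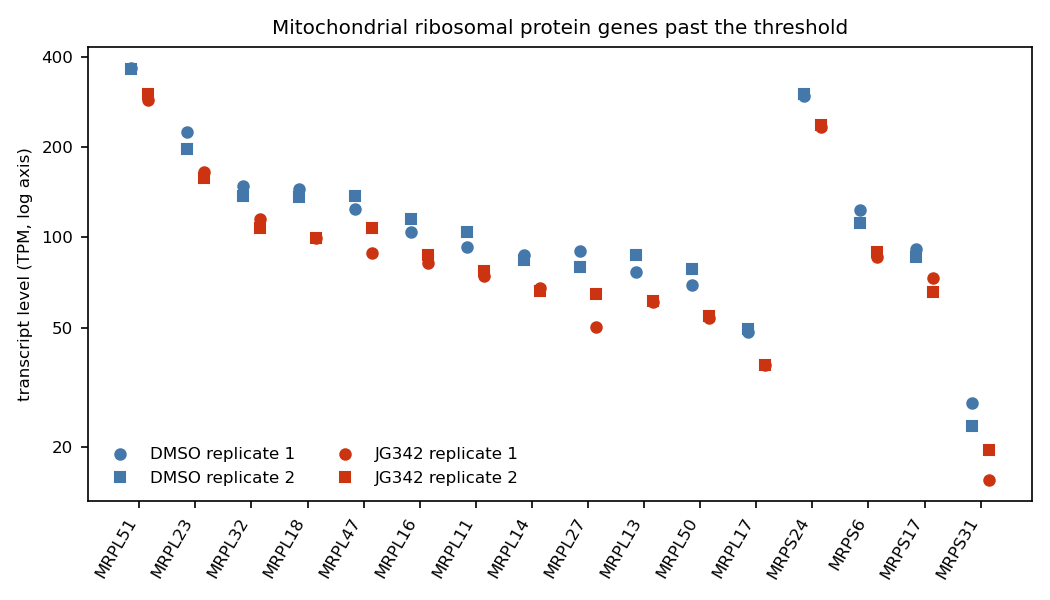
Level of the 16 genes past the threshold in each library, in TPM on a log axis, with DMSO in blue and JG342 in red and circles and squares for replicates 1 and 2. In all 16 genes both JG342 libraries lie below both DMSO libraries, from MRPL51 at the top to MRPS31 at the bottom.

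In the central protuberance of the large subunit, 2 of 8 genes fell and the median log2 fold change was −0.08. Of all members 20.5% fell, and of all genes tested 7.62%. The groups by place in the ribosome are small, and their differences from the other members were not tested. MRPL27, whose bacterial counterpart reaches toward the site of peptide bond formation, had 89.95 and 79.81 TPM in DMSO and 50.29 and 64.55 TPM in JG342. It had the largest fall of all members, −0.56 ± 0.13 SE (limma adjusted p 0.0213), but the size differed between the numbered pairs, at −0.83 and −0.30. MRPL18 had 144.62 and 136.08 TPM in DMSO and 99.23 and 99.43 TPM in JG342. Its fall of −0.49 ± 0.09 SE had the smallest adjusted p of the members (limma, 0.00915), and it passed in 11 of 12 alternative fits. MRPL18 is known for a second product, started within the message under heat stress, that stays in the cytosol and helps ribosomes translate HSP70. TPM per gene do not show which product is made. The other 6 genes of the protuberance, among them MRPL58, a peptidyl-tRNA hydrolase built into the ribosome, had fold changes between −0.21 and 0.14.

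Around the exit of the tunnel, where the new chain meets the inner membrane, 3 of 6 genes fell. This count stands beside 20.5% of all members and 7.62% of all genes tested, and the difference was not tested. MRPL47 had 124.16 and 136.97 TPM in DMSO and 88.67 and 107.62 TPM in JG342, a fall of −0.41 ± 0.12 SE (limma adjusted p 0.0415). MRPL23 had 223.91 and 197.65 TPM in DMSO and 165.27 and 157.76 TPM in JG342, a fall of −0.38 ± 0.10 SE (limma adjusted p 0.0304). MRPL17 had 48.48 and 49.33 TPM in DMSO and 37.67 and 37.40 TPM in JG342, a fall of −0.37 ± 0.10 SE (limma adjusted p 0.0386). None of these 3 genes passed without the filter on low values or without the variance trend. The remaining tunnel genes did not pass in the main fit. MRPL45, which holds the ribosome to the membrane, had a fold change of 0.12 ± 0.11 SE (limma adjusted p 0.491), and MRPL22 and MRPL24 had fold changes of 0.04 and −0.01.

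At the stalk, the mobile arm that recruits translation factors, 1 of 5 genes fell. The share was 20.5% for all members and 7.62% for all genes tested. MRPL11, at the base of the stalk, had 92.60 and 104.39 TPM in DMSO and 74.37 and 77.25 TPM in JG342, a fall of −0.37 ± 0.10 SE (limma adjusted p 0.0387). MRPL12, the repeated tip protein, had 201.29 and 252.38 TPM in DMSO and 153.95 and 190.05 TPM in JG342. Its groups did not overlap either, and replicate 2 was the higher library in both, with pairs of −0.38 and −0.41. Its fold change of −0.40 ± 0.14 SE did not pass (limma adjusted p 0.0772), but it passed without JG342 replicate 2 (limma adjusted p 0.0282). MRPL12 shares 68.2% of its transcript with another annotated protein-coding gene, so its level is uncertain. MRPL10, which anchors the tip proteins, had 51.81 and 57.51 TPM in DMSO and 60.40 and 64.39 TPM in JG342, a fold change of 0.19 ± 0.11 SE (limma adjusted p 0.254). The stalk genes thus had fold changes on both sides of 0.

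The other 6 MRPL genes that fell belong to the body of the large subunit. MRPL50 went from 73.8 ± 6.27 TPM (SD, n = 2) to 54.3 ± 0.806 TPM and MRPL13 from 82.1 ± 7.79 to 61.1 ± 0.587 TPM. MRPL16, which lies by the tRNA sites, had 104.49 and 114.79 TPM in DMSO and 82.12 and 87.49 TPM in JG342. MRPL14, which faces the small subunit and binds the assembly factor MALSU1, had 87.32 and 84.12 TPM in DMSO and 67.92 and 66.23 TPM in JG342. MRPL32, which is cut by a protease of the inner membrane before assembly, had 148.05 and 137.01 TPM in DMSO and 114.85 and 107.59 TPM in JG342. MRPL51 is given above. The fold changes of these 6 genes ran from −0.43 (MRPL50) to −0.32 (MRPL51), with limma adjusted p between 0.0240 and 0.0383.

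At the other end of the MRPL genes, MRPL2 and MRPL43 had the highest fold changes. MRPL2, which supports the site of peptide bond formation, had 50.34 and 59.75 TPM in DMSO and 62.92 and 73.52 TPM in JG342. Its groups did not overlap, and its fold change of 0.31 ± 0.13 SE did not pass (limma adjusted p 0.125). MRPL43 had 79.91 and 86.63 TPM in DMSO and 104.17 and 89.10 TPM in JG342, a fold change of 0.21 ± 0.11 SE (limma adjusted p 0.224). Its pairs gave 0.38 and 0.04, and JG342 replicate 1 was its highest library.

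Among the small subunit genes, 4 fell. MRPS31, in the head, had 28.10 and 23.54 TPM in DMSO and 15.51 and 19.60 TPM in JG342, a fall of −0.54 ± 0.15 SE (limma adjusted p 0.0408). As for MRPL27, the pairs differed, at −0.82 and −0.25, and in both genes JG342 replicate 1 was the lowest library. MRPS6, in the platform, had 122.98 and 111.58 TPM in DMSO and 85.88 and 89.03 TPM in JG342, a fall of −0.42 ± 0.10 SE (limma adjusted p 0.0212). MRPS24 fell by the same amount in both pairs, −0.34 ± 0.09 SE (limma adjusted p 0.0275). A readthrough gene, URGCP-MRPS24, covers 86.3% of its transcript and is listed at 0 to 9.24 TPM, so reads could be split between them. MRPS17 had 91.11 and 86.05 TPM in DMSO and 72.91 and 65.87 TPM in JG342, a fall of −0.35 ± 0.10 SE (limma adjusted p 0.0471), and it too shares sequence with another annotated gene. Of the 8 genes of the head, MRPS31 and MRPS24 fell, and MRPS14 was the one with a fold change above 0 (0.11 ± 0.14 SE, limma adjusted p 0.622). The count for the head was not tested against the 20.5% of all members or the 7.62% of all genes tested.

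MRPS12, the protein of the decoding centre, had 120.64 and 126.06 TPM in DMSO and 106.69 and 114.98 TPM in JG342. Its libraries did not overlap, but the fold change of −0.15 ± 0.10 SE did not pass (limma adjusted p 0.301). The 3 paralogs of the bacterial S18 protein, which take different places in the ribosome, were expressed at nearly 1 level, with means of 72.9 (MRPS18C) to 87.9 TPM (MRPS18B). Their fold changes were 0.05 (MRPS18A), 0.13 (MRPS18B) and −0.20 (MRPS18C), each within about 2 standard errors of 0, with limma adjusted p of 0.768, 0.518 and 0.250. The differences among the paralogs were not tested, and MRPS18A and MRPS18C share sequence with other annotated genes. MRPS30 had 41.91 and 59.74 TPM in DMSO and 40.77 and 48.22 TPM in JG342, so its groups overlapped (fold change −0.17 ± 0.17 SE, limma adjusted p 0.510).

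**Figure D3:**
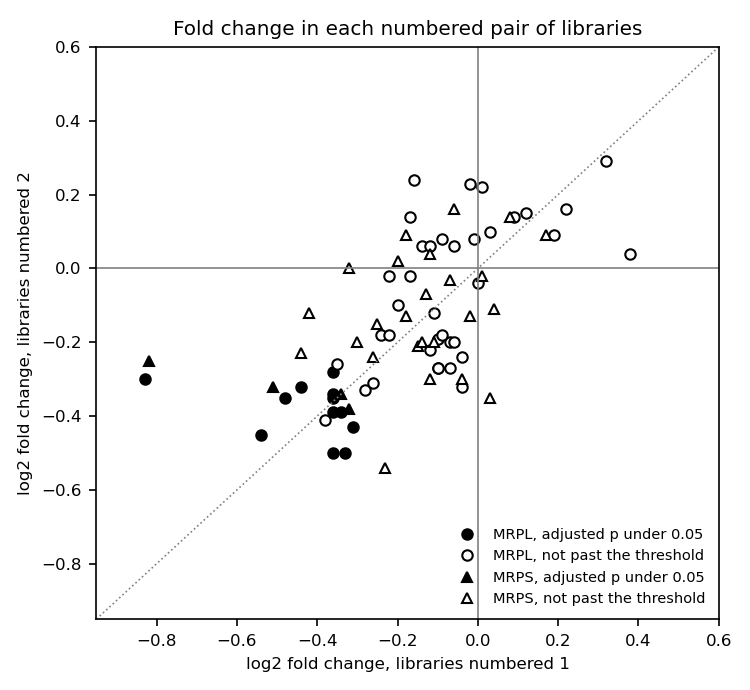
Log2 fold change in the libraries numbered 1 (x axis) against that in the libraries numbered 2 (y axis), with circles for MRPL, triangles for MRPS and filled symbols for genes past the threshold. Of the 78 genes 52 lie below 0 on both axes and 10 above 0 on both, and the 2 filled points far to the left are MRPL27 and MRPS31.

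The direction was lower in both numbered pairs for 52 members, higher in both for 10 and different for 16. A fall in both pairs was seen for 34.9% of all genes tested. Across the 78 genes the fold changes of the pairs correlated with a Pearson r of 0.62, against 0.75 across all genes tested. Genes are not independent replicates, and these correlations are descriptions. Across members the fold change had a Spearman rho of −0.03 with the mean level and of −0.04 with the transcript length.

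Members were also counted by origin, with MRPS36 left out. Of the 46 genes with a bacterial counterpart 13 fell (28.3%), with a median log2 fold change of −0.18. Of the 31 genes counted as only in mitochondria 3 fell (9.68%), namely MRPL50, MRPL51 and MRPS31, with a median of −0.04. Among all genes tested 7.62% fell, a share close to that of the genes counted as only in mitochondria. The 31 include MRPS18A and MRPS18B, although these are paralogs of the bacterial S18 protein. Their log2 fold changes were 0.05 and 0.13, and neither passed. The counts were not made with these genes moved to the other kind. Within the large subunit the counts were 10 of 30 and 2 of 19, and within the small subunit 3 of 16 and 1 of 12. Both JG342 libraries lay below both DMSO libraries for 34 of the 46 and for 11 of the 31, where 28.2% of all genes tested did. The difference between the kinds was not tested. Their median levels were 88.8 TPM and 70.4 TPM.

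**Figure D4:**
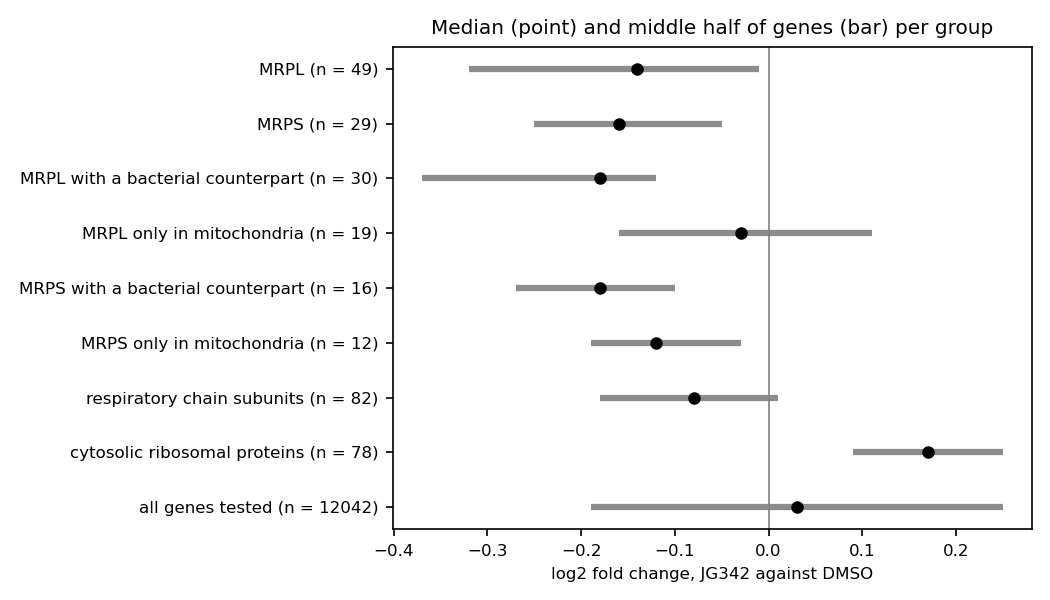
Median log2 fold change (point) and the lower to upper quartile (bar) for the mitochondrial ribosomal protein genes by subunit and origin, for the respiratory chain and cytosolic ribosome, and for all genes tested. The MRPL genes with a bacterial counterpart have a median of −0.18 and those only in mitochondria −0.03, while the cytosolic ribosomal protein genes have 0.17.

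The ribosome of the cytosol and the respiratory chain, whose core subunits the mitochondrial ribosome makes, were counted the same way. Of 78 cytosolic ribosomal protein genes tested 7 rose and none fell in limma (25 and 0 at an unadjusted p under 0.05), with 7 below 0 and a median log2 fold change of 0.17. The 7 are 8.97%, below the 10.8% of all genes that rose. Both JG342 libraries lay above both DMSO libraries for 56 of the 78, where this held for 34.0% of all genes tested. With quantile normalization 6 rose, with a median of 0.09. None rose after scaling to equal library medians, where the median was 0.11, without the filter on low values or without the variance trend. With a library left out the median ran from 0.12 to 0.24. Of 82 nuclear genes for respiratory chain subunits 6 fell and 3 rose, with a median of −0.08. The 6 are 7.32%, near the 7.62% of all genes that fell, and 1 fell when either DMSO library was left out. The fold change was below 0 for 58 of the 82 respiratory chain genes (70.7%, against 46.5% of all genes tested). Both JG342 libraries lay below both DMSO libraries for 39 of them (47.6%, against 28.2%). The medians of both families are given beside the −0.16 of the mitochondrial ribosome as descriptions.

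Other genes of mitochondrial gene expression were read from a list of 63 genes in the table. Of these, 5 fell and 2 rose (11.1% called, against 18.4% of all genes tested). The fold change was below 0 for 41 of the 63 (65.1%, against 46.5% of all genes tested). Both JG342 libraries lay below both DMSO libraries for 31 of them (49.2%, against 28.2%). The median log2 fold change was −0.14, beside −0.16 for the members. None of the 5 mitoribosomal proteins with other names (DAP3, CHCHD1, AURKAIP1, PTCD3 and GADD45GIP1) passed in limma, and their fold changes ran from −0.19 to −0.06, with no unadjusted p under 0.05. In the transcription machinery of mitochondria 2 of 5 genes fell (40.0%, against 7.62% of all genes tested). TFAM, which packs mitochondrial DNA and opens its promoters, had 35.52 and 36.04 TPM in DMSO and 26.34 and 24.35 TPM in JG342, a fall of −0.48 ± 0.11 SE (limma adjusted p 0.0202). TFB2M, the initiation factor of the mitochondrial polymerase, had 50.32 and 59.63 TPM in DMSO and 41.71 and 37.85 TPM in JG342, a fall of −0.45 ± 0.12 SE (limma adjusted p 0.0335). Neither TFAM nor TFB2M passed without the filter on low values (limma adjusted p 0.0573 and 0.0963). Without the variance trend TFAM passed and TFB2M did not (limma adjusted p 0.0453 and 0.0763). With a library left out, TFAM ran from −0.54 to −0.43 and TFB2M from −0.57 to −0.33. The translation factors went both ways.

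Of 16 translation factor genes, SLIRP and TUFM fell and MTIF3 rose (18.8% called, against 18.4% of all genes tested). SLIRP, which stabilises mitochondrial messages with LRPPRC, had 108.81 and 126.45 TPM in DMSO and 94.45 and 81.79 TPM in JG342, a fall of −0.41 ± 0.12 SE (limma adjusted p 0.0405). TUFM, the elongation factor that brings tRNA to the ribosome, had 265.66 and 284.83 TPM in DMSO and 218.50 and 225.44 TPM in JG342, a fall of −0.31 ± 0.09 SE (limma adjusted p 0.0464). MTIF3, an initiation factor that keeps the subunits apart, had 31.48 and 36.13 TPM in DMSO and 45.88 and 44.27 TPM in JG342, a rise of 0.41 ± 0.12 SE (limma adjusted p 0.0408). In each of the 3 genes the groups did not overlap. Among 28 genes of ribosome assembly and rRNA modification, NGRN rose by 0.39 ± 0.12 SE (limma adjusted p 0.0472) and none fell, with 5 lower at an unadjusted p under 0.05. The calls of MTIF3 and NGRN were lost after scaling the libraries to equal medians. In that fit 9 of the 63 genes of the list were lower and none higher, where 9.97% of all genes fell. None of SLIRP, TUFM, MTIF3 and NGRN passed with quantile normalization, without the filter on low values or without the variance trend. Of 9 nuclear regulators MYC fell, from 285.08 and 290.87 TPM to 181.12 and 181.80 TPM, by −0.66 ± 0.09 SE (limma adjusted p 0.00206), and it passed in all 12 alternative fits. The regulators NRF1, GABPA and YY1 had fold changes of −0.09, −0.21 and 0.07 and did not pass.

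Some members start close to a gene on the other strand, called head to head here. Of 69 members with a start in the RefSeq promoter table, 22 (31.9%) had a tested gene on the other strand starting within 1000 bases, against 15.4% of the tested genes in that table. MRPL46 and MRPS11 are such a pair with each other, which leaves 21 pairs. Fold changes had the same sign in 15 of the 21 (71.4%), and in 56.4% of all 750 such pairs of tested genes. Among the 16 members that fell, 14 have a start in that table, and 6 had such a neighbour. All 6 neighbours were below 0, where 46.5% of all genes tested were. TMEM63B (−0.13), EME1 (−0.12) and ZNF189 (−0.06) did not pass. In 3 of the 6 pairs the neighbour fell past the threshold, where 7.62% of all genes tested fell.

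MRPL18 and TCP1, whose closest starts are 210 bases apart, are one of these 3 pairs. TCP1, a subunit of the cytosolic chaperonin that folds actin and tubulin, had 185.80 and 191.77 TPM in DMSO and 131.45 and 123.78 TPM in JG342, a fall of −0.56 ± 0.09 SE (limma adjusted p 0.00519). It fell beside the −0.49 of MRPL18, and it passed in all 12 alternative fits. MRPL32 and PSMA2, a subunit of the core proteasome, start 202 bases apart. PSMA2 had 257.58 and 266.95 TPM in DMSO and 196.26 and 190.76 TPM in JG342, a fall of −0.44 ± 0.09 SE (limma adjusted p 0.0116), beside −0.35 for MRPL32. MRPL51 and NCAPD2, a condensin subunit, start 840 bases apart, and their promoter windows share 0 bases. NCAPD2 had 87.88 and 104.52 TPM in DMSO and 64.64 and 66.49 TPM in JG342, a fall of −0.54 ± 0.11 SE (limma adjusted p 0.0127).

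Neighbouring starts did not go with equal changes in every pair. MRPL57 had a fold change of −0.04 while SKA3, a kinetochore gene starting 106 bases away, fell by −0.77 ± 0.15 SE (limma adjusted p 0.0105). MRPL54 had 0.12 while APBA3 rose by 0.79 ± 0.12 SE (limma adjusted p 0.00401). MRPS12 had −0.15 while SARS2, the mitochondrial seryl-tRNA synthetase, named here after its values were seen, fell by −0.45 ± 0.13 SE (limma adjusted p 0.0434). For MRPL27 the largest fall stood beside −0.12 for EME1, whose start is 45 bases away. In 3 of the 21 pairs the first exons overlap, and whether the reads keep strand is not given in the sources used here, so reads there could be assigned to either gene.

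**Figure D5:**
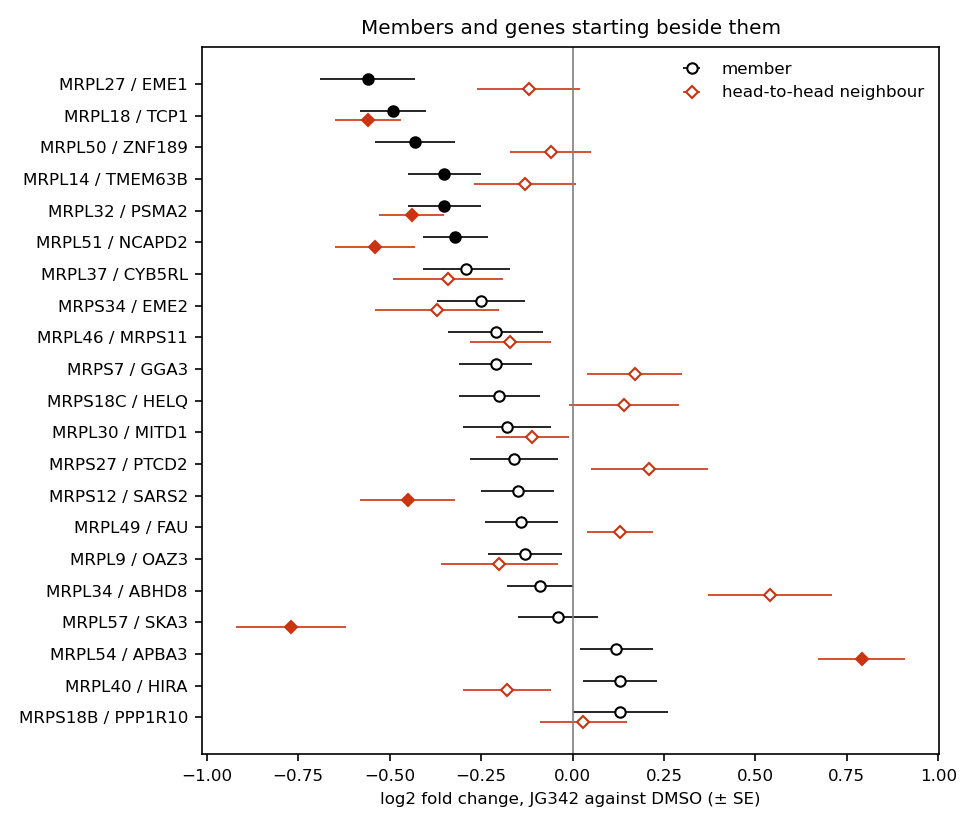
Log2 fold change with its standard error for the 21 pairs of a member (black circle) and the gene that starts beside it on the other strand (red diamond), sorted by the member, with filled symbols past the threshold. MRPL18 with TCP1, MRPL32 with PSMA2 and MRPL51 with NCAPD2 are filled in both, and MRPL57 with SKA3 and MRPL54 with APBA3 stand far apart.

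The promoter windows of the members were searched for 6 motifs, and the differences in share were not tested. The ETS motif CCGGAAG, read on both strands like the others, was found in 30 of 69 members (43.5%), in 23.0% of 9617 tested genes and in 10.3% of all 35116 windows. The YY1 motif AANATGGC was found in 26 members (37.7%), in 12.7% of tested genes and in 6.58% of all windows. NRF1, a factor known for driving nuclear genes of mitochondria, had its motif in 9 members (13.0%) and 13.6% of tested genes, with 5.78% of all windows. The E-box CACGTG, bound by MYC among others, was found in 9 members (13.0%), in 12.8% of tested genes and in 7.26% of all windows. A gene can have more than 1 window, so shares of genes and shares of windows are unlike measures. Of the 85 windows of members 38.8% held the ETS motif, 32.9% YY1, 11.8% NRF1 and 10.6% the E-box.

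The shares were also counted among members that fell. The ETS motif was found in 6 of the 14 that fell and have a window, and in 24 of the other 55. The YY1 motif was found in 5 of the 14 and in 21 of the 55. The ATF4 element TGATGNAA was found in 1 member, MRPL55, and in 2.68% of tested genes, with 3.62% of all windows. A heat shock element was found in 2 members, MRPL51, shown above, and MRPL48, where it overlaps an ETS match, against 0.447% of tested genes and 0.490% of all windows. In MRPL32 the 2 YY1 matches lie at the 2 ends of the shared window, 8 bases after the start of MRPL32 and, on the other side, 222 bases before it, close to the start of PSMA2. Matches are letters in a window and do not show binding. MRPL2, MRPL10, MRPL13, MRPL15, MRPL21, MRPL23, MRPL35, MRPS28 and MRPS36 were not read for motifs.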

How the data were processed

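The authors deposited 1 table of RNA-seq values for 4 libraries, with a symbol and a RefSeq accession per gene and no stated unit. The deposited values were taken as TPM because the 4 library sums are nearly equal, at 994463 to 994718. HISAT2 2.0.4, Bowtie2 2.2.5 and RSEM 1.2.12 are named in the submitters' processing notes, without roles. Genome build, annotation and strand are not given in the sources used here. Values were transformed to log2(TPM + 1), a scale on which fold changes of low genes are understated. Genes averaging 1 TPM or more (12042) entered a model of treatment alone in limma 3.58.1 (R 4.3.3), whose eBayes step used the trend of variance on expression. Tests were two-sided, adjusted by Benjamini-Hochberg over all genes tested, with a threshold of 0.05. The fit was first tested on simulated data. Fold changes are JG342 minus DMSO, and errors are SD (n = 2) or limma's SE.

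Members and lists were chosen with earlier results of these data known. The genes named are the members past the threshold, the 2 highest and 2 lowest fold changes in MRPL and in MRPS, the 3 highest and 3 lowest levels, 8 members chosen for their role, list genes past the threshold and the 5 neighbours with the smallest p. Others were named after their values were seen. Sequence shared with other genes was searched with BLAST 2.17.0 in GENCODE transcripts (at least 95% identity over at least 20% of the transcript) and found for 8 members, beside the readthrough gene of MRPS24. Motifs and starts come from RefSeq, GRCh38.p14. Alternatives were a replicate block, median scaling, both together, quantile normalization, a pseudocount of 0.1, no filter, a mean of at least 5 TPM, no variance trend, each library left out, and other ways to count the members.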

Additional observations from a re-analysis of the deposited data

How the results depend on the processing

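The median log2 fold change stayed below 0 for MRPL and MRPS under each alternative. For MRPL it was −0.21 with median scaling, alone or with the replicate block, and −0.20 to −0.10 with a library left out. For MRPS it was −0.23 with median scaling, alone or with the block, −0.18 with quantile normalization, −0.16 without members that share sequence with another gene, and −0.20 to −0.09 with a library left out. Median scaling moved the median of all genes from 0.03 to −0.03.

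The counts of genes past the threshold were less stable. Left-out libraries gave 0 to 4 MRPL, 0 to 3 MRPS and 1 to 5 genes of the mitochondrial translation list. Without a filter on low values 1 MRPL, 0 MRPS and 1 list gene passed, and without the variance trend 1, 0 and 2. Without members that share sequence with another gene 2 MRPS passed. With the replicate block 17 MRPL (16 lower and 1 higher), 8 MRPS and 15 list genes passed, and with the block and median scaling 19 MRPL, 11 MRPS and 24 list genes. Same-numbered libraries share a prefix in their descriptions, whose meaning is not stated, and their deviations correlated at 0.27 across genes. The 1 higher was MRPL2 (limma adjusted p 0.0107), the single rise among the 78 members in any alternative fit. It did not pass with block and median scaling (limma adjusted p 0.0512). MRPL12 fell with the block (limma adjusted p 2.99e-05) and with block and median scaling (0.00269). With the block 15.7% of all genes fell, and with block and median scaling 19.2%. With the block 39 of 78 cytosolic ribosomal protein genes rose, and of 82 respiratory chain genes 20 fell and 6 rose. In the same fit 34.9% of all genes tested changed in either direction. The block leaves 1 residual degree of freedom. In the fit with the block alone, limma took each gene's variance wholly from the trend on expression. The p-values of that fit, such as those of MRPL2 and MRPL12, thus do not measure a gene's own spread between replicates. The cause of these moves was not tested.

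Of the named genes' values under the alternatives, 333 kept their direction and side of the threshold, 145 lost a call, 7 gained one and 7 changed sign, none of them called. With a library left out, MRPS14 ran from −0.05 to 0.27 (below 0 without DMSO replicate 2, and at −0.02 without JG342 replicate 1) and MRPS18B from −0.02 (without DMSO replicate 1) to 0.28. MRPS18A ran from −0.01 (without JG342 replicate 2) to 0.12, and MRPS30 from −0.42 to 0.08 (without DMSO replicate 2). MRPS18A was also at −0.02 with median scaling, alone or with the block. Where 1 library stood alone, it was assumed to vary like the other treatment.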
